A study of Drosophila melanogaster with 9 samples.

Results

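Drosophila S2 cells in which Cyclin A (CycA), a cyclin that binds the mitotic kinase Cdk1, was knocked down by RNA interference were set against S2 cells given a double-stranded RNA (dsRNA) for GFP. The members were 3 RNA-Seq libraries of CycA dsRNA cells and 3 of GFP dsRNA cells, 6 of the 9 libraries of the series, and every gene of the count table that passed an expression filter, 9231 of 17493 genes. CycA dsRNA cells are labelled as induced endoreplicating cells (iECs), that is, cells that keep duplicating DNA without dividing, and GFP dsRNA cells as mitotic cycling cells. The remaining 3 libraries came from Myb dsRNA cells, a second kind of iEC, and were used to share the estimate of the spread and for a direct test of where CycA dsRNA cells differed from them. All groups were the same line, S2-DGRC, an embryo-derived line with features of plasmatocytes, the macrophage-like blood cells of the fly. All were kept at 25 °C and harvested 96 h after the dsRNA was added, with 3 biological replicates each. The labels give 12% serum for every group, whereas the methods of the study give unequal serum for S2 cells and for iECs. If the shares did differ between the groups, serum and dsRNA cannot be told apart. GFP has no counterpart in the fly genome, so its dsRNA serves as the control for the treatment itself.

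In a mitotic cycle, cyclins A and B drive Cdk1 into mitosis, and many genes for the spindle, the kinetochore and cytokinesis depend on the Myb-MuvB complex (MMB). Genes for entry into S phase depend on E2F1. In an endocycle, a form of endoreplication, a cell skips mitosis and alternates gap and S phases, so it needs replication genes but not those of division. In endomitosis, another form, a cell starts mitosis and leaves mitosis or cytokinesis unfinished. The study saw some multinucleate cells after CycA knockdown and took them as endomitotic. S2 cells also secrete and display immune proteins, and take up microbes and debris, as fly blood cells do.

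The dsRNA that removed CycA was 391 bases long with a GC content of 50.6%. Its first 300 bases, shown because this is the sequence that defines the knockdown, read 5′ to 3′ in lower case, with no part marked.
CycA dsRNA, first 300 of 391 bases: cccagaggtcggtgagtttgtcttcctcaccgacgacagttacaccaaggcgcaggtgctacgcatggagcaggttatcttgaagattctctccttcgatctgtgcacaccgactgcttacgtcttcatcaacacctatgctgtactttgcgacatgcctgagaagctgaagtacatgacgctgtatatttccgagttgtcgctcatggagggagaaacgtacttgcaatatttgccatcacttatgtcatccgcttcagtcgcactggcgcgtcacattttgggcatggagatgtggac
The longest run that it shared with the Myb dsRNA was 7 bases on the same strand and 8 bases on the opposite strand. The gene itself lies at 3L:11826719-11833578 on the minus strand of the BDGP6.54 annotation, where CG7264 overlaps it on the plus strand. Levels are given as CPM, counts divided by library size and multiplied by 1000000, after scaling by trimmed mean of M-values (TMM). CycA mRNA stood at 24.1, 43.2 and 24.7 CPM in the CycA dsRNA libraries, against 186.5, 180.7 and 185.2 CPM in the GFP dsRNA libraries. Replicate 2 of the CycA dsRNA cells kept more CycA mRNA than the other two, yet all of them stayed under every GFP dsRNA library (log2 fold change -2.57, SE 0.15, edgeR adjusted p = 1.92e-09). In Myb dsRNA cells CycA averaged 260.1 CPM, so the low level was found in the CycA dsRNA libraries alone among the 9.

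Totals ran between 29128930 and 44280452 counts per library. Within a group, the deviations of GFP dsRNA replicate 2 fell with the exon length of the gene (Spearman rho -0.521 across genes), whereas those of replicates 1 and 3 climbed with it (rho 0.442 and 0.248). The 3 CycA dsRNA libraries lay between -0.074 and 0.114. The labels call the replicates biological and say no more of the cultures, so p-values measure the spread between these libraries. Many genes named here overlap another gene in the annotation, on the other strand (aurA, cmet, mad2, Mps1, Sse, ncd, Klp61F, Orc2, Mcm3, SdhA, TyrRS-m, crq, Mmp1, dally, NANS and yin among them) or on the same strand (mip130, vas, Sap-r and sesB), and part of their counts may be the partner's, as the strand setting is not given. In bulk RNA, fewer cells that express a gene and less of its RNA per cell cannot be told apart.

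A gene is called higher or lower here when its log2 fold change, CycA dsRNA over GFP dsRNA, was at least 0.5 in size with a Benjamini-Hochberg adjusted p under 0.05 in edgeR's quasi-likelihood test. By this rule 1954 genes (21.2% of those tested) were higher in CycA dsRNA cells and 1301 genes (14.1%) were lower. These shares are the background for each gene group that follows. A gene near the filter could pass it through the group in which it was high, so counts among weakly expressed groups describe the members that passed and not the whole family. A further 3275 genes (35.5%) had an adjusted p under 0.05 with a smaller change. The 3 CycA dsRNA libraries were all above the 3 GFP dsRNA libraries for 3311 genes (35.9%) and all below them for 3380 (36.6%), with 1904 of the genes called higher and 1287 of those called lower among them.

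Rises and falls differed in size and in starting level. Of the genes called higher, 1175 changed at least 2-fold, 351 at least 4-fold and 81 at least 8-fold, with a median log2 fold change of 1.17. Of the genes called lower, 259 changed at least 2-fold, 41 at least 4-fold and 4 at least 8-fold, with a median of -0.71. Genes called higher had a median of 1.10 CPM in GFP dsRNA cells, where 950 of the 1954 were under 1 CPM, and genes called lower had a median of 35.8 CPM there. Genes called higher held 18.1% of the counts of CycA dsRNA libraries and 10.3% of those of GFP dsRNA libraries. Genes called lower held 5.63% of the counts in CycA dsRNA libraries and 9.71% in GFP dsRNA libraries.

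**Figure D1:**
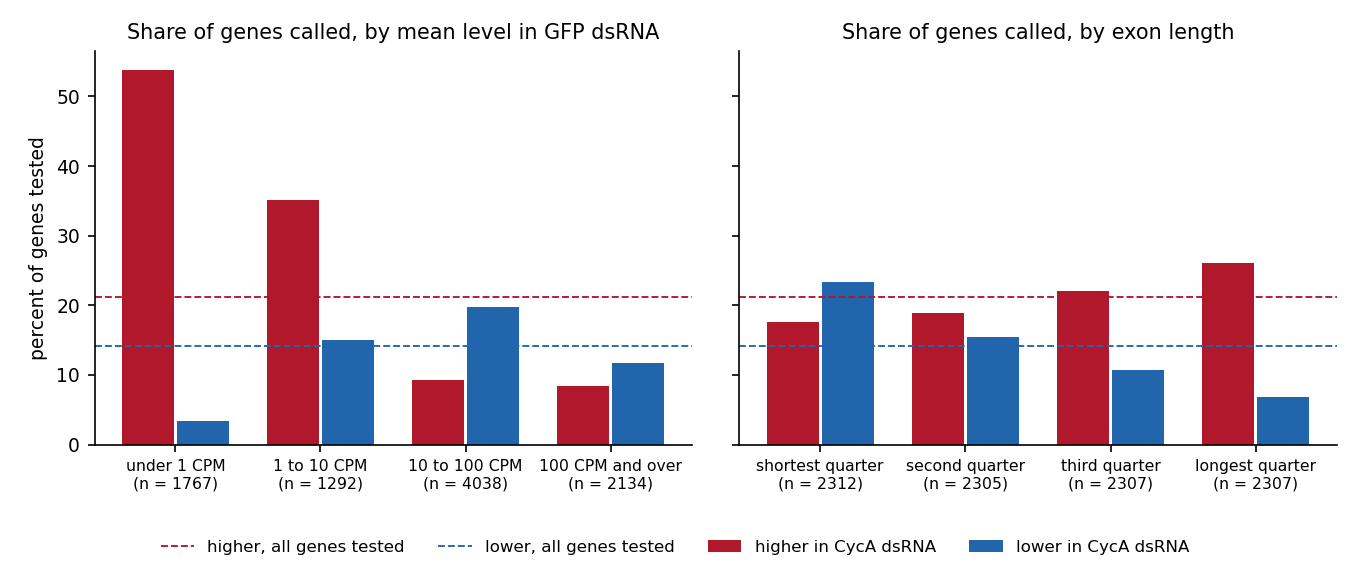
Percent of genes tested that were called higher (red bars) or lower (blue bars) in CycA dsRNA against GFP dsRNA cells, by mean level in GFP dsRNA cells (left, CPM) and by quartile of summed exon length (right). Dashed lines give the shares over all genes tested, 21.2% higher and 14.1% lower, and n is the number of genes in each bin. Of genes under 1 CPM in GFP dsRNA cells 53.8% were called higher, a share that follows in part from the filter, which such genes could pass through a knockdown group, and the share called lower was 23.3% in the shortest quartile against 6.85% in the longest.

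Gene length moved with the calls. From the shortest to the longest quartile of genes, the share called lower was 23.3%, 15.5%, 10.7% and 6.85%, and the share called higher was 17.6%, 18.9%, 22.1% and 26.1%. With a trend on exon length removed from each library, the shares called lower became 13.3%, 12%, 12.3% and 11.4%. The trend was still there when GFP dsRNA replicate 2 was left out (21%, 14.2%, 11.1% and 7.89% called lower). The part of library preparation in it was not tested. It touches groups of short genes most, and the counts without the trend stand beside several of those groups.

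Of 16 cyclins, kinases and partners that carry a cell into mitosis, 9 were called lower after CycA knockdown and none higher (median log2 fold change -0.62). The steepest fall was that of bora, an activator of Aurora A and thereby of Polo. Its mRNA stood at 4.34, 3.48 and 4.06 CPM in the CycA dsRNA libraries, against 28.7, 29.0 and 29.0 CPM in the GFP dsRNA libraries and every CycA dsRNA library lay far below every GFP dsRNA library (log2 fold change -2.88, SE 0.077, edgeR adjusted p = 5.75e-13). Cks30A, a small subunit that docks Cdk1 onto its substrates, had 13.5, 13.3 and 13.1 CPM in the CycA dsRNA libraries, against 79.6, 83.5 and 82.5 CPM in the GFP dsRNA libraries (log2 fold change -2.62, SE 0.048, edgeR adjusted p = 3e-14). Both groups were tight and did not overlap. The kinase polo itself, which acts from mitotic entry to cytokinesis, had 48.6, 54.2 and 52.3 CPM in the CycA dsRNA libraries, against 221.4, 215.1 and 212.6 CPM in the GFP dsRNA libraries (log2 fold change -2.06, SE 0.047, edgeR adjusted p = 1.54e-13).

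Further members fell less steeply. The Aurora A kinase aurA changed by -2.01 (edgeR adjusted p = 3.02e-13) and the kinase gwl (Greatwall), which holds back a phosphatase of Cdk1 substrates, by -1.61 (1.29e-11) on the log2 scale. CycB, the main partner of Cdk1 at mitotic entry, had 81.7, 94.8 and 87.4 CPM in the CycA dsRNA libraries, against 240.1, 237.3 and 243.9 CPM in the GFP dsRNA libraries (log2 fold change -1.45, SE 0.051, edgeR adjusted p = 9.59e-12). The other B-type cyclin, CycB3, changed by -0.87, Cdk1 by -0.62 and the inhibitory kinase Wee1 by -0.62, each of them called, though Cdk1 was not with the length trend removed. The phosphatase string (stg), which activates Cdk1, had 127.8, 117.5 and 116.6 CPM in CycA dsRNA cells and 173, 153 and 161.5 CPM in GFP dsRNA cells, without overlap, yet its change of -0.43 did not reach the fold threshold.

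**Figure D2:**
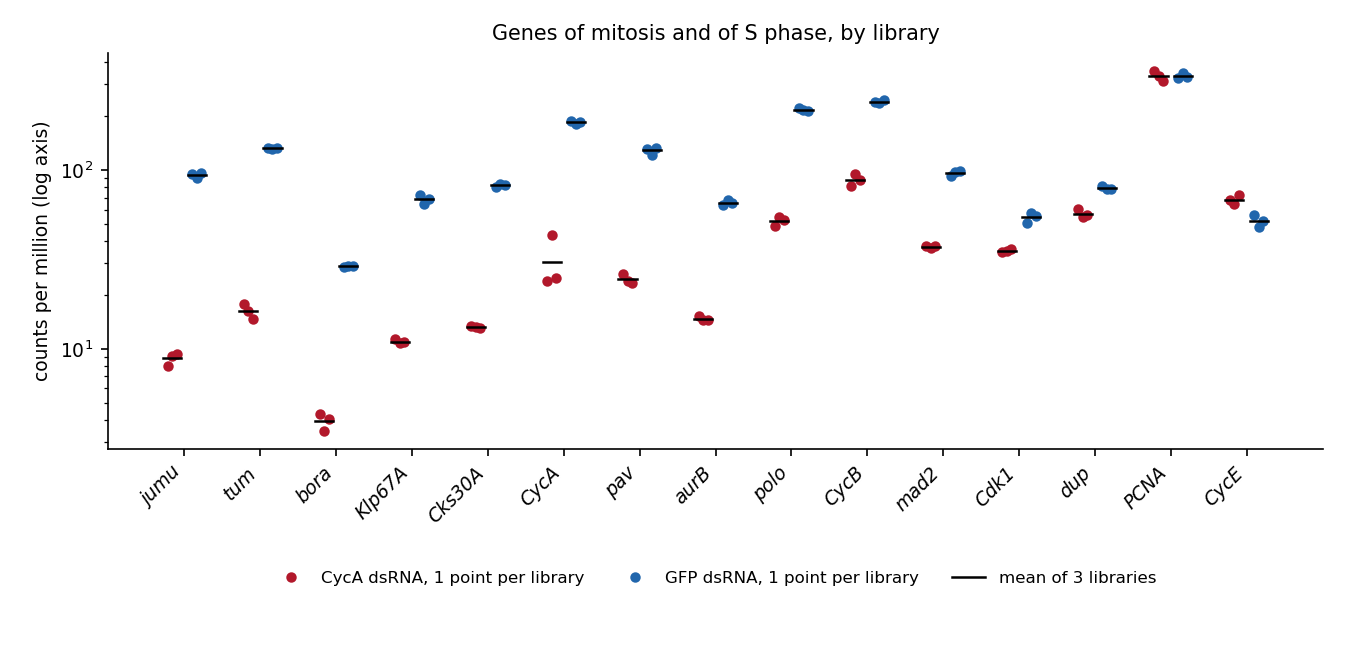
TMM-scaled CPM (log axis) of the transcription factor jumu, 11 genes of mitosis and 3 of S phase in each CycA dsRNA library (red) and each GFP dsRNA library (blue), with a line at the mean of 3 libraries. From jumu to dup the CycA dsRNA libraries lie below the GFP dsRNA libraries without overlap, those of PCNA overlap, and for CycE the CycA dsRNA libraries lie above, by less than the fold threshold.

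The chromosomal passenger complex, the Aurora B kinase with its 3 partners, was lower in all 4 of its genes. The kinase aurB had 15.3, 14.5 and 14.5 CPM in the CycA dsRNA libraries, against 63.2, 67.7 and 64.9 CPM in the GFP dsRNA libraries (log2 fold change -2.15, SE 0.048, edgeR adjusted p = 1.37e-13). The scaffold Incenp changed by -1.65, borr (Borealin) by -1.35 and Det (Deterin, the fly Survivin) by -1.17, with edgeR adjusted p between 9.09e-12 and 5.32e-09. Of 17 centromere and kinetochore genes, 15 were called lower and none higher (median -1.29), and the other 2 also lay below 0 with an adjusted p under 0.05. The kinesin cmet, the fly counterpart of CENP-E, had 33.8, 34.3 and 35.4 CPM in the CycA dsRNA libraries, against 148.3, 111.7 and 146.7 CPM in the GFP dsRNA libraries. Replicate 2 was the lowest of the GFP dsRNA libraries for this long gene and still lay well above the CycA dsRNA libraries (log2 fold change -1.98, SE 0.087, edgeR adjusted p = 8.38e-11). The centromeric histone cid changed by -0.63, a call lost with the length trend removed, and Cenp-C, which bridges centromere and kinetochore, changed by -1.13.

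The spindle checkpoint, which delays anaphase until every kinetochore is attached, had 3 of 6 genes called lower, mad2, Mps1 and Bub3 (-0.77). Checkpoint protein mad2 had 37.4, 36.7 and 37.3 CPM in the CycA dsRNA libraries, against 92.8, 97.7 and 98.2 CPM in the GFP dsRNA libraries (log2 fold change -1.37, SE 0.041, edgeR adjusted p = 1.73e-12), and the kinase Mps1 changed by -1.31 (edgeR adjusted p = 3.81e-11). For BubR1 and Bub1 the changes of -0.47 and -0.32 were under the fold threshold, with edgeR adjusted p = 2.51e-06 and 0.000483. Downstream of the checkpoint, 4 of 16 genes of the anaphase-promoting complex (APC/C) and separase set were called lower, none of them a core subunit of the complex. They were the mitotic activator fzy (Cdc20, -1.57), the securin pim (-1.52), separase Sse (-1.12) and its partner thr (-1.01). The G1 activator fzr, which endocycling cells use in place of fzy, had 19, 18.3 and 18.7 CPM in CycA dsRNA cells and 20.4, 20.7 and 20.7 CPM in GFP dsRNA cells and was not called (log2 fold change -0.14, SE 0.049, edgeR adjusted p = 0.02). Against this direction one core subunit, APC7, was called higher. It had 14.7, 14.6 and 13.4 CPM in the CycA dsRNA libraries, against 4.41, 5.97 and 6.07 CPM in the GFP dsRNA libraries (log2 fold change 1.39, SE 0.10, edgeR adjusted p = 1.54e-08), and it was also above the Myb dsRNA cells, which averaged 4.71 CPM (log2 fold change 1.60).

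Spindle motors and microtubule proteins fell in 18 of 24 cases, with none called higher (median -1.18). The kinesin-8 Klp67A had 11.3, 10.7 and 10.9 CPM in the CycA dsRNA libraries, against 72.3, 64.1 and 69.0 CPM in the GFP dsRNA libraries (log2 fold change -2.65, SE 0.056, edgeR adjusted p = 6.75e-14), though genes CG34456 and mRRF1 overlap it on the other strand. The spindle pole protein asp changed by -2.50, the minus-end motor ncd by -2.48, the augmin subunit msd1 by -2.0 and the bipolar kinesin Klp61F by -1.46. The kinesin Klp10A, which also trims interphase microtubules, had 191.2, 187.7 and 198.7 CPM in CycA dsRNA cells and 227.8, 198.5 and 218.2 CPM in GFP dsRNA cells and was not called. In the central spindle and cytokinesis set, 8 of 18 genes were called lower. The centralspindlin pair led it, with the RacGAP tum at 17.9, 16.2 and 14.6 CPM in the CycA dsRNA libraries, against 132.5, 130.7 and 131.8 CPM in the GFP dsRNA libraries (log2 fold change -3.03, SE 0.059, edgeR adjusted p = 3.21e-14) and its kinesin pav at 26.2, 23.9 and 23.3 CPM in the CycA dsRNA libraries, against 131.3, 121.4 and 132.8 CPM in the GFP dsRNA libraries (log2 fold change -2.40, SE 0.056, edgeR adjusted p = 1.76e-13).

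Other cytokinesis genes were lower too, namely citron kinase sti (-1.74), the microtubule bundler feo (-1.55), anillin scra (-1.48) and the RhoGEF pbl (-0.85). By contrast Rho1, the GTPase that they act on and that serves the cytoskeleton at all times, had 828.8, 857.4 and 901.3 CPM in CycA dsRNA cells and 890.8, 807.6 and 859.6 CPM in GFP dsRNA cells (log2 fold change 0.02, SE 0.059, edgeR adjusted p = 0.813). The septin pnut was not called (-0.16), and Septin1 was called higher at 306.9, 304.9 and 294.3 CPM in the CycA dsRNA libraries, against 199.9, 193.8 and 197 CPM in the GFP dsRNA libraries (log2 fold change 0.62, SE 0.039, edgeR adjusted p = 4.39e-09). For condensin I, which compacts mitotic chromosomes, all of Cap-D2 (-1.42), glu (-1.16), Cap-G (-1.14), SMC2 (-1.0) and barr (-0.88) were lower. Cohesin, which the cell also needs outside mitosis, was not called in any of SMC1 (-0.22), SMC3 (-0.03), vtd (0.08) and SA (-0.13). Condensin and cohesin together had 8 of 17 genes called lower, and 5 of them when the test was made against the fold threshold itself. Centrosome genes gave 9 of 19 lower, led by Poc1 (-1.64) and spd-2 (-1.13), with gammaTub37C, the maternal gamma-tubulin, higher at 0.97.

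**Figure D3:**
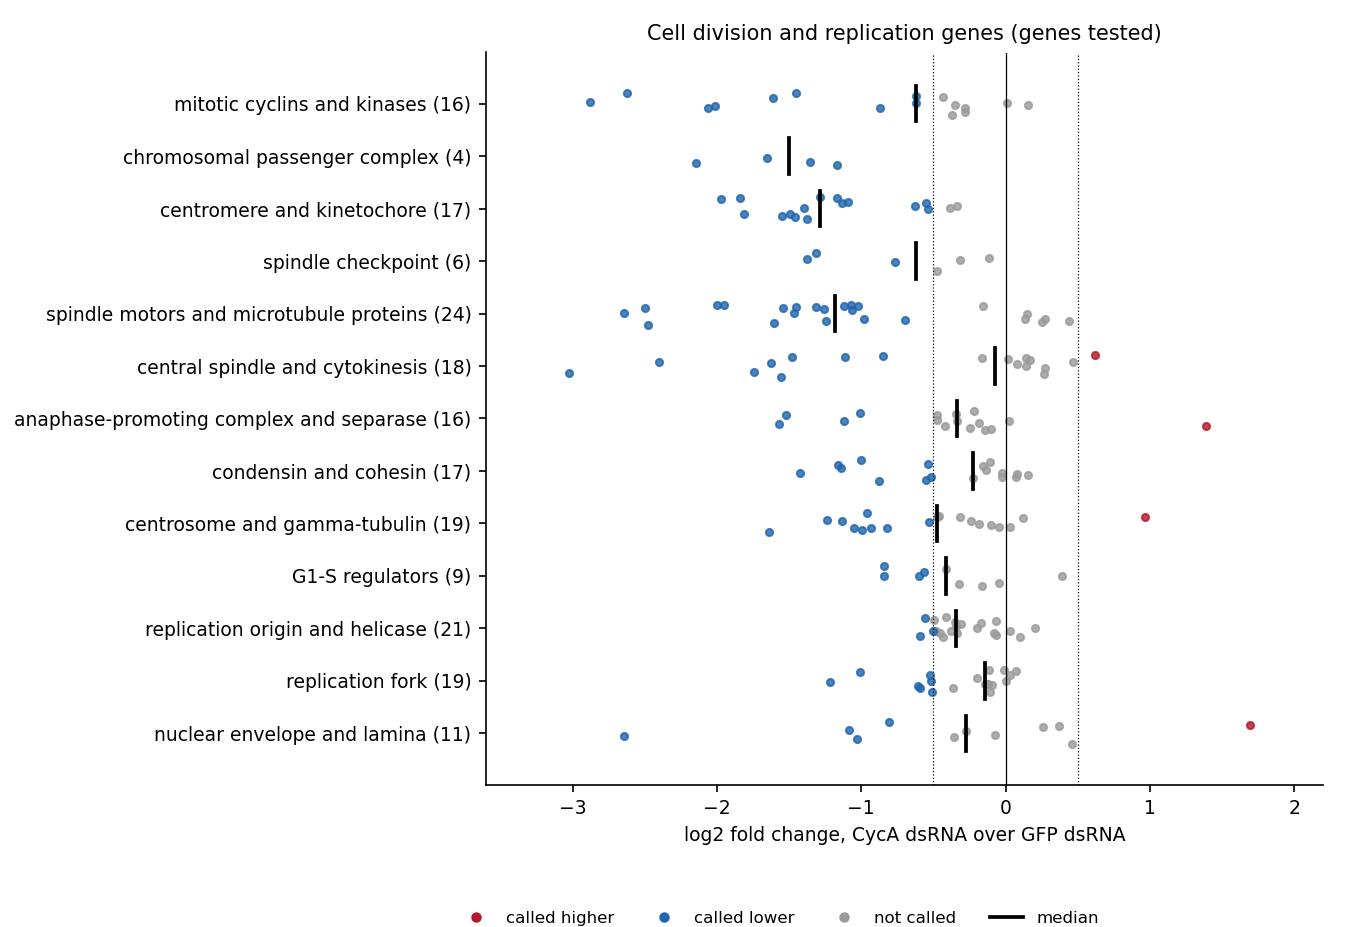
Log2 fold change, CycA dsRNA over GFP dsRNA, of each tested gene (points, number in brackets) in 13 lists of cell division and replication genes. Red points were called higher, blue ones lower and grey ones neither, the dotted lines mark the fold threshold of 0.5, and black ticks are medians, which run from -1.50 in the chromosomal passenger complex to -0.07 in the cytokinesis set.

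Genes of the nuclear envelope and lamina split in direction. Of 11 genes 4 were called lower and 1 higher. Farnesylated lamina protein kuk (Kugelkern), which shapes nuclei in the embryo, had 5.30, 5.18 and 4.94 CPM in the CycA dsRNA libraries, against 31.0, 32.4 and 33.1 CPM in the GFP dsRNA libraries (log2 fold change -2.65, SE 0.072, edgeR adjusted p = 6.19e-13). The B-type lamin Lam had 221.6, 220.2 and 230.4 CPM in the CycA dsRNA libraries, against 477.3, 431.8 and 460.6 CPM in the GFP dsRNA libraries (log2 fold change -1.03, SE 0.048, edgeR adjusted p = 1.53e-10). The LEM-domain protein Ote changed by -1.09 and the lamin B receptor LBR by -0.81. The A-type lamin LamC went the other way (3 genes of the list were higher without GFP dsRNA replicate 1). It stood at 10.7, 7.92 and 9.82 CPM in the CycA dsRNA libraries, against 3.26, 2.68 and 2.69 CPM in the GFP dsRNA libraries (log2 fold change 1.70, SE 0.13, edgeR adjusted p = 2.83e-08), and the groups overlapped for neither lamin. Against Myb dsRNA cells the same genes were called in the same directions, kuk at -3.04, Lam at -1.17, Ote at -1.0, LBR at -1.25 and LamC at 1.27. Both comparisons use the 3 CycA dsRNA libraries, so they are not independent.

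Replication genes were called lower in part. In the list of origin and helicase genes, 18 of 21 lay below 0, 3 were called lower (14.3%, against 14.1% of all genes) and none higher (median -0.34), and 13 of the 18 uncalled ones had an adjusted p under 0.05. The 3 were Orc2 (-0.59), Mcm2 (-0.56) and Mcm3 (-0.50), and the count ran from 0 in the test against the fold threshold to 6 with the length trend removed. It was 5 without GFP dsRNA replicate 3, without CycA dsRNA replicate 1 or without Myb dsRNA replicate 1 or 2. Without CycA dsRNA replicate 3, neither Mcm2 nor Mcm3 was called and the count was 1, and Mcm3 was not called without GFP dsRNA replicate 1 either. The licensing factor dup (Cdt1) had 60.2, 54.2 and 55.7 CPM in the CycA dsRNA libraries, against 81.3, 78.5 and 77.7 CPM in the GFP dsRNA libraries (log2 fold change -0.48, SE 0.049, edgeR adjusted p = 5.72e-07), under the fold threshold. Its inhibitor geminin was called lower, at 122.3, 110.9 and 113.1 CPM in the CycA dsRNA libraries, against 207.4, 211.1 and 202.7 CPM in the GFP dsRNA libraries (log2 fold change -0.84, SE 0.047, edgeR adjusted p = 9.97e-10). The sliding clamp PCNA had 357.4, 333.4 and 312.1 CPM in the CycA dsRNA libraries, against 327.8, 349.6 and 331.8 CPM in the GFP dsRNA libraries and its groups overlapped (log2 fold change -0.01, SE 0.053, edgeR adjusted p = 0.882). CycE, the cyclin of S phase entry, had 67.5, 64.2 and 72.5 CPM in the CycA dsRNA libraries, against 55.6, 47.8 and 52.0 CPM in the GFP dsRNA libraries, above GFP dsRNA in every CycA dsRNA library but by less than the fold threshold (log2 fold change 0.39, SE 0.060, edgeR adjusted p = 3.58e-05). Its kinase Cdk2 was called lower (log2 fold change -0.84, SE 0.059, edgeR adjusted p = 1.16e-08), though CG17267 overlaps that gene on the other strand.

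At the fork, 7 of 19 genes were called lower (36.8%), with a median of -0.14. The largest changes were those of clamp loader subunits, RfC3 with 12.1, 12.3 and 12.1 CPM in the CycA dsRNA libraries, against 26.4, 29.7 and 28.6 CPM in the GFP dsRNA libraries (log2 fold change -1.21, SE 0.059, edgeR adjusted p = 2.59e-10) and RfC4 with a change of -1.01. For the replication fork list, the count was 3 in the test against the fold threshold and 4 with upper-quartile scaling or with the length trend removed. Gnf1 (-0.52) was not called without GFP dsRNA replicate 1 or CycA dsRNA replicate 2, nor RPA3 (-0.52) without GFP dsRNA replicate 2 or CycA dsRNA replicate 3. In nucleotide synthesis, 5 of 15 genes were called lower, among them dUTPase (-0.92), whereas the ribonucleotide reductase subunits RnrL (-0.13) and RnrS (0.20) were not called. Of 12 histone and chromatin assembly genes 2 were called lower, the histone mRNA binding protein Slbp (-0.78) and the variant His2Av (-0.51). His2Av was not called without GFP dsRNA replicate 2 or without CycA dsRNA replicate 2. The library kits select polyadenylated RNA, and the replicative histones, whose mRNA lacks a tail, are not described.

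Genes known to need E2F1 in S2 cells, a list from earlier work on other samples, numbered 111, all tested. Of these, 59 were called lower (53.2%, against 14.1% of all genes) and 2 higher, with a median of -0.51. The members called lower include much of the mitotic machinery described above, such as tum, polo, pav and mad2. The 2 higher ones were RecQ4, a helicase of replication start (0.57), and CG6805 (0.76), and RecQ4 was not called without GFP dsRNA replicate 2. By class as the list gives it, 38 of 66 were lower in class A, 16 of 36 in class B and 5 of 9 in class C. The E2F and MMB subunits themselves had 7 of 12 genes lower. These included mip40 (-0.95), mip130 (-0.71), lin-52 (-0.60), Rbf2 (-0.84) and E2f2 (-0.71), while E2f1 (0.02), Rbf (-0.30) and Myb (-0.37) were not called. With no fold threshold 11 of the 12 genes were lower, Rbf and Myb among them, and E2f1 was the exception. By RT-qPCR the study likewise saw less Myb mRNA after CycA knockdown.

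Set directly against Myb dsRNA cells, CycA dsRNA cells had 1426 genes higher (15.4% of those tested) and 1339 lower (14.5%), together 30% of genes. Of the 19 fork genes 18 were called lower, of the 21 origin and helicase genes 14, and of the 111 E2F1-dependent genes 85. Against GFP dsRNA cells the same counts were 7, 3 and 59. For the fork genes the median was -0.77 against Myb dsRNA and -0.14 against GFP dsRNA cells. The counts against Myb dsRNA therefore do not measure a fall from the control. PCNA averaged 575.4 CPM in Myb dsRNA cells, and CycA dsRNA cells stood at -0.78 on the log2 scale relative to them (edgeR adjusted p = 8.8e-09). For dup the same difference was -1.46, for Mcm7 -1.24, for RfC3 -1.71 and for CycE -0.63. Several mitotic genes were also lower than in Myb dsRNA cells, tum at -2.21, bora at -2.23, ncd at -2.09 and polo at -0.93 on the log2 scale. Others such as Mps1 (-0.22), Sse (-0.08), cmet (-0.32) and Poc1 (-0.06) were not called between both kinds of iEC.

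Nuclear genes that serve mitochondrial gene expression were lower in CycA dsRNA cells. Of 72 tested nuclear genes for mitochondrial ribosomal proteins, 65 were called lower (90.3%, against 14.1% of all genes), and all 72 lay below 0, with a median of -0.73 and a lowest value of -1.63. These proteins build the ribosome that translates the mitochondrial genome. The largest fall was that of mRpL55, which had 13.7, 14.6 and 13.8 CPM in the CycA dsRNA libraries, against 40.5, 46.4 and 43.4 CPM in the GFP dsRNA libraries (log2 fold change -1.63, SE 0.058, edgeR adjusted p = 1.07e-11). Small subunit protein mRpS35 had 49.3, 46.0 and 43.5 CPM in the CycA dsRNA libraries, against 102.1, 111 and 100.2 CPM in the GFP dsRNA libraries (log2 fold change -1.18, SE 0.052, edgeR adjusted p = 9.44e-11). Summed over the list, CycA dsRNA libraries held between 1996 and 2078 CPM and GFP dsRNA libraries between 3178 and 3530 CPM. These are short genes, and with the length trend removed 45 genes of the mitochondrial ribosome were called lower, still none higher, with a median of -0.53.

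Nuclear genes of oxidative phosphorylation followed, with 37 of 63 called lower, 2 higher and a median of -0.56. With the length trend removed the number lower was 15 and the median -0.39, and in the test against the fold threshold it was 24. ATP synthase subunit ATPsynE had 120.9, 113.3 and 115.5 CPM in the CycA dsRNA libraries, against 205.2, 229.9 and 195.3 CPM in the GFP dsRNA libraries (log2 fold change -0.85, SE 0.055, edgeR adjusted p = 4.68e-09), and ATPsynC, the ring subunit, changed by -0.74. The 2 higher genes were near silent copies, ND-51L1 and ATPsynbetaL, both under 1 CPM in every library of both groups. In the citrate cycle 7 of 18 genes were lower, including the succinyl-CoA synthetase subunit ScsbetaG at 48.6, 47.2 and 48.0 CPM in the CycA dsRNA libraries, against 97.2, 102.5 and 99.2 CPM in the GFP dsRNA libraries (log2 fold change -1.05, SE 0.042, edgeR adjusted p = 2.87e-11), and the succinate dehydrogenase subunits SdhA (-0.69) and SdhB (-0.69). Mdh1, the cytosolic malate dehydrogenase, was not called (-0.12).

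Of 32 aminoacyl-tRNA synthetases 5 were called lower (15.6%, near the share of all genes). They were 5 of the 15 mitochondrial enzymes and 0 of the other 17, a difference that was not tested. Among them were TyrRS-m (log2 fold change -1.2, SE 0.059, edgeR adjusted p = 2.81e-10) and MetRS-m (log2 fold change -1.0, SE 0.051, edgeR adjusted p = 3.68e-10). The smallest of the 5, AsnRS-m (-0.53), was not called without GFP dsRNA replicate 2. Among 18 heat shock proteins the 2 called lower were the mitochondrial chaperones, Hsp60A with 499.6, 521 and 496.6 CPM in the CycA dsRNA libraries, against 810.7, 883.6 and 849.5 CPM in the GFP dsRNA libraries (log2 fold change -0.75, SE 0.054, edgeR adjusted p = 1.62e-08) and Hsc70-5 with a change of -0.53. Hsc70-5 was not called with upper-quartile scaling, with a minimum count of 50 or in the test against the fold threshold. Cytosolic ribosomal proteins gave 2 lower and 1 higher of 86, with a median of -0.17, and all 3 were minor paralogs or duplicates, RpS19b (-0.99), RpS15Ab (-0.63) and RpS5b (1.23), whose reads may be shared with their near-identical copies. Most of these 86 genes leaned down, with 77 below 0 and 9 above it. All genes in the shortest quartile of exon length had the same median, -0.17. No value without the length trend is given for this list. Of the 83 uncalled genes, 41 met the p-value rule of the call but not its fold rule. Their summed level was 143900 to 156400 CPM in CycA dsRNA and 153400 to 187900 CPM in GFP dsRNA libraries, for all 86 genes. RpL3, a core large-subunit protein, was chosen after its values were seen and does not stand for the list. It had 3550, 3754 and 3354 CPM in CycA dsRNA cells and 3016, 3576 and 3488 CPM in GFP dsRNA cells.

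**Figure D4:**
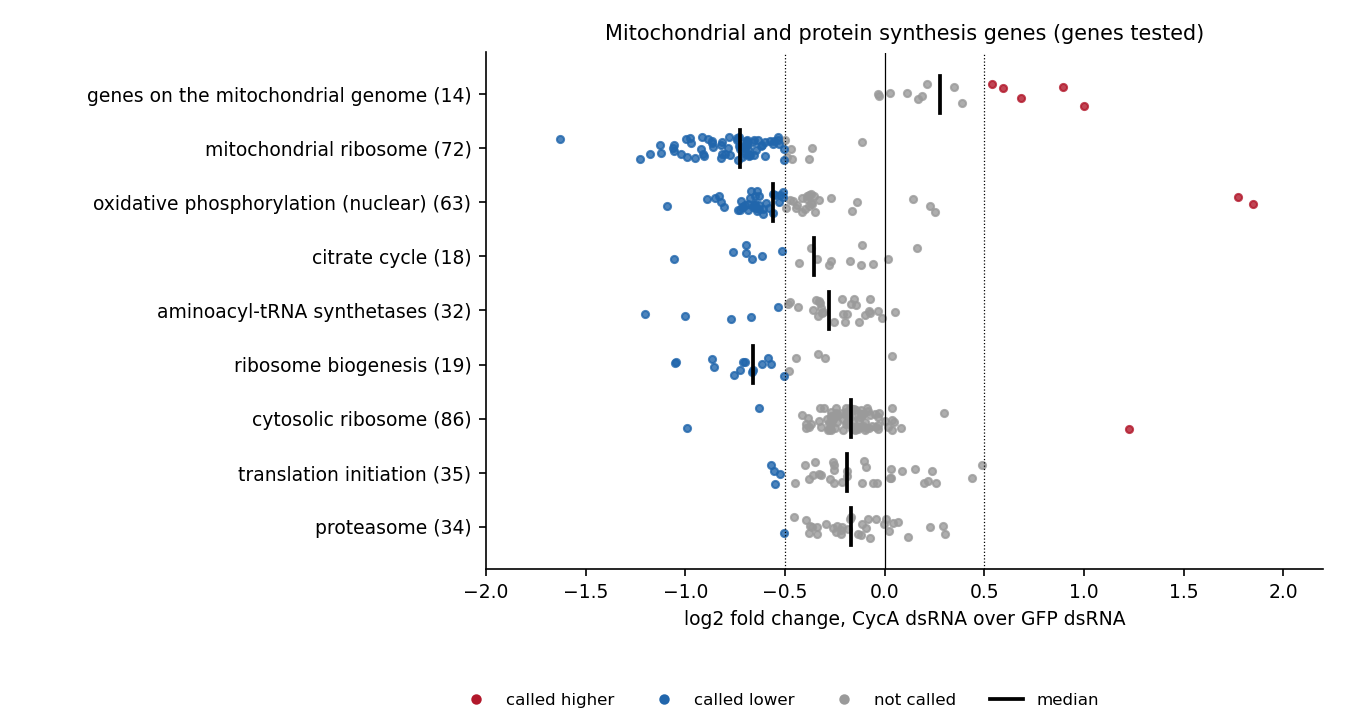
Log2 fold change, CycA dsRNA over GFP dsRNA, of each tested gene (points, number in brackets) on the mitochondrial genome and in 8 lists of nuclear genes. Red points were called higher, blue lower and grey neither, dotted lines mark the fold threshold of 0.5 and black ticks are medians, -0.73 for the mitochondrial ribosome, -0.17 for the cytosolic one and 0.28 for genes on the mitochondrial genome.

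Of 14 genes tested on the mitochondrial genome itself, 5 were called higher (35.7%), 9 were not called and none was lower, with a median of 0.28. These genes were looked at after their values were seen. The large ribosomal RNA mt:lrRNA had 38990, 39940 and 43830 CPM in the CycA dsRNA libraries, against 22570, 27600 and 26310 CPM in the GFP dsRNA libraries (log2 fold change 0.68, SE 0.087, edgeR adjusted p = 5.96e-06). Cytochrome oxidase subunit mt:CoIII had 3229, 3163 and 3480 CPM in the CycA dsRNA libraries, against 2238, 2336 and 2218 CPM in the GFP dsRNA libraries (log2 fold change 0.54, SE 0.055, edgeR adjusted p = 5.74e-07), and it was not called without GFP dsRNA replicate 3 or without CycA dsRNA replicate 3. Subunit mt:CoI was above GFP dsRNA in every CycA dsRNA library but under the fold threshold (0.21), and mt:ND1 had overlapping groups (-0.03). The call of mt:ND5 (0.59) was lost without GFP dsRNA replicate 1. The libraries were enriched for polyadenylated RNA, which bears on how mitochondrial RNA is captured, and the part of that in these values was not tested.

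Of 19 genes for ribosome biogenesis in the nucleolus, 14 were called lower and none higher (median -0.66). The rRNA methylase Fib (fibrillarin) had 156.4, 155.6 and 142.4 CPM in the CycA dsRNA libraries, against 299.5, 333.9 and 308.5 CPM in the GFP dsRNA libraries (log2 fold change -1.05, SE 0.053, edgeR adjusted p = 3.68e-10). Its partner in box C/D particles, nop5, had 127, 126.7 and 127.3 CPM in the CycA dsRNA libraries, against 262.6, 262.5 and 263.1 CPM in the GFP dsRNA libraries (log2 fold change -1.05, SE 0.040, edgeR adjusted p = 2.12e-11), though x16 and a small nucleolar RNA gene overlap it on the same strand. Other members were Nop56 (-0.86), the H/ACA protein NHP2 (-0.86), the nucleolar chaperone Nopp140 (-0.66) and RNA polymerase I subunits RpI135 (-0.76) and RpI1 (-0.73). The nucleolar GTPase Non1 was not called (0.04). Across the groups that make or degrade protein in the cytosol, few genes were called. Translation initiation factors had 4 of 35 lower (eIF1, eIF3i, eIF4E6 and eIF6, between -0.57 and -0.53, eIF3i not without GFP dsRNA replicate 2 and eIF4E6 not without CycA dsRNA replicate 2), and 0 with the length trend removed or in the test against the fold threshold. The proteasome had 1 of 34 lower, Prosalpha6 (-0.50), whose call was lost without GFP dsRNA replicate 2 and without CycA dsRNA replicate 2 or 3, while 2 proteasome genes were lower without GFP dsRNA replicate 1 or 3. The unfolded protein response had 1 of 15 lower, the chaperone cofactor Sil1 (-0.54). Of 17 genes of insulin, Tor and Myc signalling 1 was lower, Max (-0.58), the partner of Myc, and of 12 Hippo pathway genes none was called, and 1 without GFP dsRNA replicate 1.

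Phagocytosis receptors bind microbes and dying cells at the surface of blood cells. Of 24 phagocytosis receptor genes listed 16 passed the filter, and of these 13 were called higher (81.2%, against 21.2% of all genes) and 1 lower. The Nimrod receptor eater had 51.8, 45.5 and 50.7 CPM in the CycA dsRNA libraries, against 2.97, 3.06 and 3.26 CPM in the GFP dsRNA libraries, a gap with no overlap (log2 fold change 3.99, SE 0.077, edgeR adjusted p = 3.21e-14). Draper (drpr), the receptor for apoptotic cells, had 126.7, 120.1 and 118.1 CPM in the CycA dsRNA libraries, against 24.6, 21.2 and 23.3 CPM in the GFP dsRNA libraries (log2 fold change 2.40, SE 0.054, edgeR adjusted p = 1.42e-13), though its locus overlaps CG18171 and Oseg4 on the same strand. The CD36-like receptor crq (Croquemort) had 488.5, 495.3 and 489.7 CPM in the CycA dsRNA libraries, against 222.1, 214.5 and 219.9 CPM in the GFP dsRNA libraries (log2 fold change 1.17, SE 0.040, edgeR adjusted p = 6.74e-12). Tep4, a secreted complement-like protein, changed by 0.90, and Sr-CI, a scavenger receptor, by 1.87. NimC4 went against the rest, at 16.6, 16.4 and 13.9 CPM in the CycA dsRNA libraries, against 29.9, 29.4 and 28.6 CPM in the GFP dsRNA libraries (log2 fold change -0.91, SE 0.075, edgeR adjusted p = 6.54e-08), and lies inside nAChRalpha5. With a minimum count of 50 in place of 10, 8 of these genes were called higher, since several, NimA and NimB2 among them, stood under 1 CPM in all 6 libraries.

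Blood cell markers bore on the identity of the line. Of 11 plasmatocyte markers 7 were called higher and none lower, with ush (0.55) not called without GFP dsRNA replicate 2 or CycA dsRNA replicate 1. Markers eater, NimC1 and Sr-CI are also counted among the phagocytosis receptors above, so the lists are not separate. He (Hemese), a surface protein of blood cells, had 14.3, 12.6 and 15.6 CPM in the CycA dsRNA libraries, against 0.585, 0.519 and 0.401 CPM in the GFP dsRNA libraries (log2 fold change 4.79, SE 0.15, edgeR adjusted p = 2.49e-12), and NimB5 overlaps it on the other strand. The GATA factor srp, which specifies blood cells, had 197, 193 and 193.9 CPM in CycA dsRNA cells and 218.8, 192.4 and 205.8 CPM in GFP dsRNA cells and was not called (-0.08), and neither was Pxn (-0.11). Hml stayed below 1 CPM in every library of both groups. The summed level of the list was 1253 to 1330 CPM in CycA dsRNA and 773.3 to 878.6 CPM in GFP dsRNA libraries. Of 4 lamellocyte markers tested 3 were higher (ItgaPS4 1.83, Itgbn 1.92, mthl4 1.10), but atilla, a defining one, was under the filter. Both ItgaPS4 and Itgbn are also counted among the integrin adhesion genes below. In neuron markers 5 of 6 were higher, 3 with the length trend removed, with those 5 under 3 CPM except Syx1A and a summed level of 201.3 to 224.8 CPM in CycA dsRNA and 101.3 to 144 CPM in GFP dsRNA libraries. Muscle markers had 5 of 7 higher, summing to 705.1 to 749.1 CPM in CycA dsRNA and 564.8 to 671.4 CPM in GFP dsRNA libraries. Mhc, the muscle myosin, was under 1.5 CPM in each library. Epithelial markers had 2 of 5 higher, cora and Nrg, while 3 were not called and 2 of the 5 lay below 0. They summed to 1438 to 1560 CPM in CycA dsRNA and 591.7 to 767 CPM in GFP dsRNA libraries. Most of that sum was cora, which averaged 1363 CPM in CycA dsRNA and 569.3 CPM in GFP dsRNA cells. Germline and ovary markers had 2 of 9 higher and 1 lower. Of 2 crystal cell markers tested peb was higher (1.07) and PPO2 was not called (-0.48), with lz and PPO1 under the filter. Of 2 fat body markers tested Lsp1beta was higher (1.98) and Fbp2 was not called (0.94), both under 1 CPM on average in either group, with Fbp1 and Lsp2 under the filter. Gut markers were all under the filter. The part of these marker genes in the results was not tested.

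Humoral immunity rests on secreted peptides and the Toll and Imd pathways. Of 14 antimicrobial peptide genes listed 10 passed the filter, and these 10 were called higher. Weakly expressed members could pass it through the group in which they were high. Of all genes, 53.8% of those under 1 CPM in GFP dsRNA cells and 35.1% of those at 1 to 10 CPM were called higher. Called higher too were 7 of 9 peptidoglycan recognition genes (77.8%, against 21.2% of all genes) and 8 of 13 Toll pathway genes (61.5%). The Imd pathway had 3 of 10 genes higher (30%, near the share of all genes), of which IKKbeta (0.52) was not called without CycA dsRNA replicate 1 or GFP dsRNA replicate 3. The antifungal peptide Drs had 128.8, 168.5 and 127.7 CPM in the CycA dsRNA libraries, against 1.73, 2.6 and 2.32 CPM in the GFP dsRNA libraries (log2 fold change 6.02, SE 0.14, edgeR adjusted p = 1.54e-13), and AttD had 52.9, 59.1 and 49.2 CPM in CycA dsRNA cells and 5.20, 5.63 and 5.29 CPM in GFP dsRNA cells. The other 8 peptide genes stayed under 10 CPM in every library of both groups. Along the Toll pathway the order of action runs from the recognition protease modSP (2.32) through grass (1.18) and the ligand spz (log2 fold change 1.43, SE 0.047, edgeR adjusted p = 4.68e-12) to the receptor Tl (1.30), the inhibitor cact (0.69) and the factor Dif (0.82), each called higher. Between and beside these steps, the recognition protein GNBP1 (0.06), the protease SPE (0.30), the adaptors Myd88 (0.19) and tub (-0.31) and the factor dl (-0.18) were not called, and the kinase pll (0.52) lost its call without GFP dsRNA replicate 3 or Myb dsRNA replicate 1 or 2. The locus of cact overlaps that of fzy, which fell, on the other strand. Serine protease inhibitors (serpins) had 6 of 12 higher and 1 lower, led by Spn77Ba, an inhibitor of melanization in the airways, at 52.9, 52.1 and 46.4 CPM in the CycA dsRNA libraries, against 8.84, 8.46 and 7.95 CPM in the GFP dsRNA libraries (log2 fold change 2.58, SE 0.073, edgeR adjusted p = 1.05e-12).

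**Figure D5:**
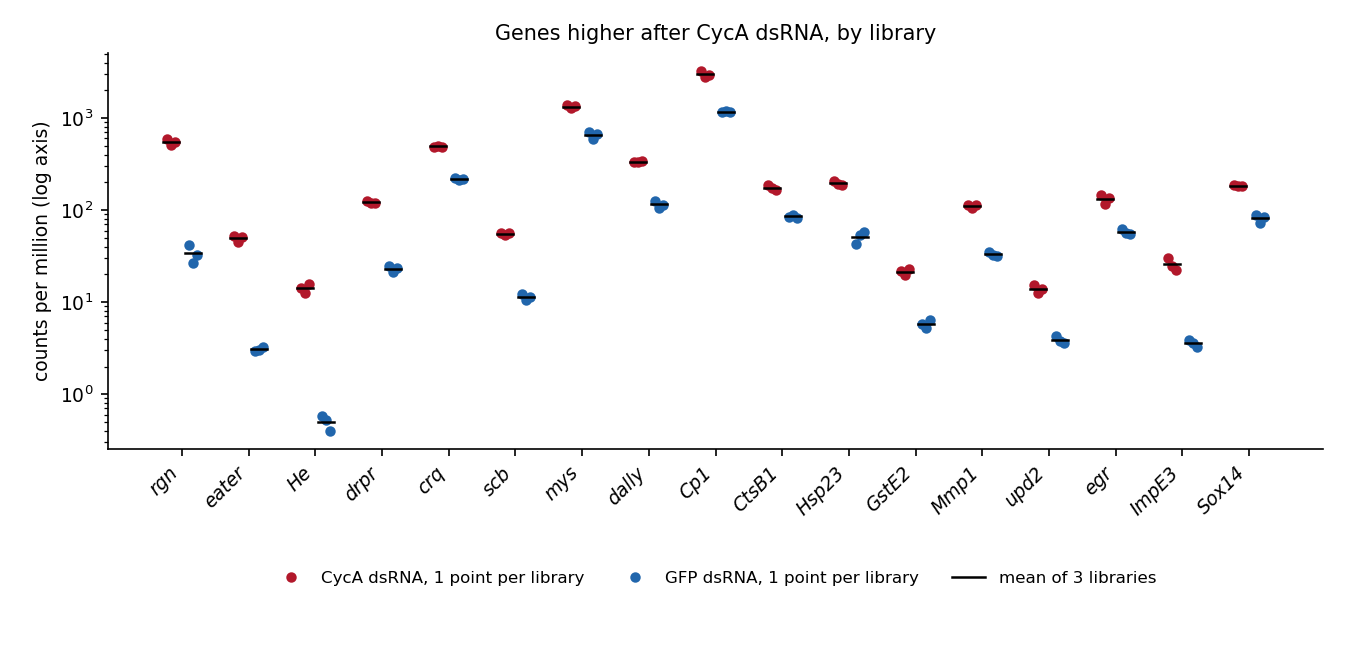
TMM-scaled CPM (log axis) of 17 genes called higher, in each CycA dsRNA library (red) and each GFP dsRNA library (blue), with a line at the mean of 3 libraries. For every gene shown the lowest CycA dsRNA library lies above the highest GFP dsRNA library, from rgn at the left to Sox14 at the right.

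Of 16 integrin adhesion genes, which fix cells to matrix, 8 were called higher, 8 were not called (4 of them below 0) and none was lower. The alpha integrin scb (Scab) had 55.9, 53.2 and 56.7 CPM in the CycA dsRNA libraries, against 12.2, 10.6 and 11.5 CPM in the GFP dsRNA libraries (log2 fold change 2.27, SE 0.062, edgeR adjusted p = 6.82e-13), the beta subunit Itgbn changed by 1.92, and the main beta subunit mys had 1382, 1272 and 1338 CPM in the CycA dsRNA libraries, against 703.3, 593.2 and 677.8 CPM in the GFP dsRNA libraries (log2 fold change 1.02, SE 0.063, edgeR adjusted p = 3.1e-09). Vinculin, Vinc (0.77), which links integrins to actin, also rose. In the basement membrane and matrix list 11 of 20 were higher and 1 lower, and 6 were higher in the test against the fold threshold. Heparan sulfate proteoglycan dally had 335, 336.2 and 340.1 CPM in the CycA dsRNA libraries, against 126.8, 106.3 and 114.5 CPM in the GFP dsRNA libraries (log2 fold change 1.54, SE 0.056, edgeR adjusted p = 1.16e-11), the collagen XV/XVIII gene Mp changed by 3.51 and the laminin alpha chain wb by 1.98. For the long genes mys, dally and wb, GFP dsRNA replicate 2 was the lowest GFP dsRNA library. The peptidase Mmp1, which degrades matrix, had 114.3, 106.5 and 112.7 CPM in the CycA dsRNA libraries, against 34.6, 32.5 and 32.0 CPM in the GFP dsRNA libraries (log2 fold change 1.75, SE 0.048, edgeR adjusted p = 6.82e-13).

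Lysosome and autophagy genes had 8 of 20 called higher and none lower, with 19 of 20 above 0 (median 0.47). Cathepsin L, Cp1, had 3261, 2779 and 2916 CPM in the CycA dsRNA libraries, against 1172, 1198 and 1155 CPM in the GFP dsRNA libraries (log2 fold change 1.34, SE 0.062, edgeR adjusted p = 1.34e-10), although CG42806 lies within its locus on the same strand. Cathepsin B, CtsB1, had 186.1, 174.3 and 163.6 CPM in the CycA dsRNA libraries, against 85.1, 88.8 and 82.3 CPM in the GFP dsRNA libraries (log2 fold change 1.03, SE 0.053, edgeR adjusted p = 3.97e-10). The cholesterol transfer proteins Npc2a (1.19) and Npc1a (0.66) and the autophagy adaptor ref(2)P (0.70) also passed. Summed over the list, CycA dsRNA libraries held between 7049 and 7519 CPM and GFP dsRNA libraries between 4169 and 4197 CPM. A large part of that sum was Cp1, which averaged 2985 CPM in CycA dsRNA and 1175 CPM in GFP dsRNA cells.

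Apoptosis genes had 7 of 14 called higher and none lower. The inhibitor antagonist hid had 12.0, 12.8 and 13.2 CPM in the CycA dsRNA libraries, against 5.44, 4.62 and 5.35 CPM in the GFP dsRNA libraries (log2 fold change 1.30, SE 0.078, edgeR adjusted p = 2.28e-09), and the TNF ligand egr (Eiger) had 145.2, 117.9 and 133.9 CPM in the CycA dsRNA libraries, against 62.2, 55.9 and 55.4 CPM in the GFP dsRNA libraries (log2 fold change 1.19, SE 0.079, edgeR adjusted p = 6.51e-09). Initiator caspase Dronc (0.74), the caspase Strica (0.73) and the inhibitor antagonist rpr (0.54) moved less, and rpr was not called without CycA dsRNA replicate 3 or without GFP dsRNA replicate 3. The receptor for egr, grnd, was under 1 CPM throughout, and its call was lost without GFP dsRNA replicate 3 or CycA dsRNA replicate 3. In the test against the fold threshold 4 of the 14 genes were called. In the DNA damage response list, which is described only in part, RecQ4 was higher (0.57) and the checkpoint kinase lok lower (-0.83). RecQ4 was not called without GFP dsRNA replicate 2. Of 10 JNK pathway genes 2 were higher, Mmp1 (1.75) and msn (0.63), the second not with the length trend removed. The JNK phosphatase puc, a common readout of that pathway, had 185, 188.2 and 192.5 CPM in CycA dsRNA cells and 166, 148.9 and 160.2 CPM in GFP dsRNA cells and was not called (0.25).

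JAK-STAT signalling had 5 of 10 genes higher, and 3 with the length trend removed or in the test against the fold threshold. The ligands were upd2 with 15.2, 12.6 and 14.1 CPM in the CycA dsRNA libraries, against 4.27, 3.75 and 3.60 CPM in the GFP dsRNA libraries (log2 fold change 1.83, SE 0.092, edgeR adjusted p = 3.49e-10) and upd3 with 12.8, 12.1 and 13.6 CPM in the CycA dsRNA libraries, against 5.26, 4.93 and 6.58 CPM in the GFP dsRNA libraries (log2 fold change 1.2, SE 0.10, edgeR adjusted p = 8.26e-08). Socs36E, a feedback inhibitor that the pathway induces, changed by 0.55 and was not called without GFP dsRNA replicate 3, and chinmo (0.51) was not called without GFP dsRNA replicate 2 or 3 or without CycA dsRNA replicate 3. Ecdysone response genes had 5 of 12 higher and none lower. Ecdysone, the moulting steroid, acts through EcR, which was itself not called (0.28). ImpE3 had 29.9, 25.0 and 22.6 CPM in the CycA dsRNA libraries, against 3.87, 3.64 and 3.26 CPM in the GFP dsRNA libraries (log2 fold change 2.83, SE 0.11, edgeR adjusted p = 1.95e-11), though CG2747 overlaps it on the same strand. Transcription factor Sox14 had 185.2, 183.6 and 183.7 CPM in the CycA dsRNA libraries, against 89.1, 73.2 and 84.0 CPM in the GFP dsRNA libraries (log2 fold change 1.16, SE 0.057, edgeR adjusted p = 2.8e-10). Eip74EF changed by 1.06 and Eip93F by 1.38, whereas the early genes Eip75B (-0.15) and br (0.14) were not called.

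Cytochromes P450 and glutathione S-transferases act on foreign compounds. Of 85 cytochrome P450 genes 54 passed the filter, and 27 of them were called higher (50%, against 21.2%) and 3 lower, and of 31 glutathione S-transferases (GST) 12 were higher (38.7%) and 1 lower. Among all genes tested, 53.8% of those under 1 CPM in GFP dsRNA cells and 35.1% of those at 1 to 10 CPM were called higher. The families were not compared with other genes of like level, so their shares are not read as a trait of the families. Cyp6a8 had 40.6, 35.9 and 38.1 CPM in the CycA dsRNA libraries, against 5.33, 6.233 and 5.24 CPM in the GFP dsRNA libraries (log2 fold change 2.77, SE 0.079, edgeR adjusted p = 1.08e-12), Cyp6d4 changed by 1.23 and the mitochondrial P450 Cyp12c1 by 2.79. GstE2 had 21.7, 19.9 and 22.7 CPM in the CycA dsRNA libraries, against 5.80, 5.22 and 6.38 CPM in the GFP dsRNA libraries (log2 fold change 1.88, SE 0.082, edgeR adjusted p = 7.72e-11), and GstE9 opposed it at 26.2, 35.2 and 36.0 CPM in the CycA dsRNA libraries, against 46.1, 68.8 and 64.2 CPM in the GFP dsRNA libraries (log2 fold change -0.86, SE 0.14, edgeR adjusted p = 6.8e-05). In both families many members are neighbours in tandem with related sequences, so their reads may be divided unevenly among copies. With a minimum count of 50, 6 of the glutathione S-transferases were called higher. Of 18 heat shock genes 8 were called higher, and 5 in the test against the fold threshold, small heat shock proteins among them. Hsp23 had 208.7, 193.8 and 188.9 CPM in the CycA dsRNA libraries, against 43.0, 53.5 and 58.0 CPM in the GFP dsRNA libraries (log2 fold change 1.94, SE 0.087, edgeR adjusted p = 1.06e-10), Hsp26 changed by 1.12 and Hsp27 by 0.94.

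The piRNA pathway, which silences transposons in germline and ovarian follicle cells, had 10 of 24 genes lower and 2 higher. Among its better expressed members were squ, at 11.8, 11.7 and 12.0 CPM in the CycA dsRNA libraries, against 54.4, 50.8 and 48.9 CPM in the GFP dsRNA libraries (log2 fold change -2.12, SE 0.057, edgeR adjusted p = 5.75e-13), zuc, the nuclease that shapes piRNAs (-1.36), fs(1)Yb, a somatic factor (-1.23), and shu, a cochaperone (-1.12). The gene squ lies within grp on the same strand. The Argonaute piwi was called lower (-1.54), with 0.925, 1.04 and 1.04 CPM in CycA dsRNA cells and 2.70, 2.83 and 3.35 CPM in GFP dsRNA cells. The 2 higher were AGO3 (0.55) and vas (1.06). In sugar uptake and glycolysis 5 of 19 genes were lower and 1 higher. The higher one was the sugar transporter Glut1 (0.83), under 1 CPM on average in either group and not called without GFP dsRNA replicate 3 or CycA dsRNA replicate 2. The lower ones included the trehalose transporter Tret1-1 (log2 fold change -0.90, SE 0.11, edgeR adjusted p = 4.59e-06). Lactate dehydrogenase Ldh had 588.8, 1069 and 788.9 CPM in the CycA dsRNA libraries, against 1015, 1301 and 1288 CPM in the GFP dsRNA libraries, so that the groups overlapped, and its call (log2 fold change -0.56, SE 0.18, edgeR adjusted p = 0.0129) was lost without CycA dsRNA replicate 1.

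The 12 largest falls among called genes that averaged at least 50 counts and had separate groups were jumu, asRNA:CR45912, CG32436, tum, bora, kuk, Klp67A, Cks30A, NANS, CycA, asp and CG5144. The largest was that of jumu, a forkhead transcription factor, with 8.04, 9.16 and 9.40 CPM in the CycA dsRNA libraries, against 94.2, 89.5 and 96.0 CPM in the GFP dsRNA libraries (log2 fold change -3.38, SE 0.060, edgeR adjusted p = 3e-14), and it was also lower than in Myb dsRNA cells (-2.82). NANS, the sialic acid synthase, had 2.21, 2.62 and 2.51 CPM in the CycA dsRNA libraries, against 14.2, 15.8 and 15.1 CPM in the GFP dsRNA libraries (log2 fold change -2.6, SE 0.083, edgeR adjusted p = 3.09e-12). The antisense transcript asRNA:CR45912 changed by -3.14 and overlaps CG6865 on the other strand. By the same rule, the 12 largest rises were those of CG17322, Drs, CG34331, He, CG5397, CG31235, CG30377, CG31778, rgn, eater, slow and CG18557. CG17322 stood at 6.26, 6.99 and 5.61 CPM in the CycA dsRNA libraries, against 0.0675, 0.0289 and 0.0572 CPM in the GFP dsRNA libraries (log2 fold change 6.82, SE 0.24, edgeR adjusted p = 8.67e-12). Regeneration (rgn), named for its part in disc regrowth, had 586.9, 505.3 and 544.5 CPM in the CycA dsRNA libraries, against 42.3, 26.4 and 32.9 CPM in the GFP dsRNA libraries (log2 fold change 4.0, SE 0.13, edgeR adjusted p = 2.79e-12), with the lncRNA genes lncRNA:CR45953 and lncRNA:CR45954 overlapping it on the same strand. CG5397 had 89.1, 75.6 and 77.6 CPM in the CycA dsRNA libraries, against 3.4, 2.68 and 3.29 CPM in the GFP dsRNA libraries (log2 fold change 4.68, SE 0.094, edgeR adjusted p = 4.24e-14). Relative to Myb dsRNA cells, eater stood at 4.45 and Drs at 5.78 on the log2 scale. For 7 genes every GFP dsRNA library was under 1 CPM and every CycA dsRNA library at 5 CPM or more, CG17322, He, CG31235, CG30377, CG14419, CG9452 and CG9312, and for 0 genes the reverse was so.

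In terms of RNA mass the order was another one. Only called genes were ranked by their change in CPM. Among called mRNAs, the largest gain was that of Arc1, a gag-like gene whose product forms capsids in neurons. Like the rest of this paragraph, it was picked after its values were seen. It had 7178, 7932 and 8084 CPM in the CycA dsRNA libraries, against 2238, 2490 and 2351 CPM in the GFP dsRNA libraries (log2 fold change 1.71, SE 0.064, edgeR adjusted p = 1.63e-11). The peptide transporter yin had 4313, 3772 and 3710 CPM in the CycA dsRNA libraries, against 1719, 1713 and 1715 CPM in the GFP dsRNA libraries (log2 fold change 1.2, SE 0.061, edgeR adjusted p = 3.97e-10), and Sap-r, the saposin precursor of the lysosome, changed by 0.97. Largest among the called genes were the losses of Df31, a protein of open chromatin (-0.83), awd, the nucleoside diphosphate kinase (-0.89), and sesB, the mitochondrial ADP/ATP carrier (-0.65). The first of these had 819.5, 804.4 and 834.5 CPM in the CycA dsRNA libraries, against 1530, 1415 and 1435 CPM in the GFP dsRNA libraries.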

How the data were processed

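RNA-Seq counts of reads per gene were deposited by the authors for 9 libraries in 1 table, as whole numbers with no scaling. Per the labels and the study's methods, poly-A RNA was made into stranded libraries, checked with FastQC 0.11.5, aligned to release 6 of the Drosophila genome with STAR 2.6.1a and counted with featureCounts, and DESeq2 1.14.1 was used by the authors for their own comparisons, which were not used here. Whether the counting used strand is not given in the sources used here.

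Genes passing edgeR's filterByExpr (minimum count 10) were fitted by the quasi-likelihood test of edgeR 4.0.16 in R 4.3.3 on all 9 libraries with 3 groups and TMM scaling, and CycA dsRNA was set against GFP dsRNA and against Myb dsRNA. Common biological variation was 0.0484 as a coefficient. A call needed an adjusted p under 0.05 over the 9231 genes and a log2 change of 0.5 or more in size. The SE is the log2 fold change divided by the root of the F statistic. Alternatives were DESeq2 1.42.0, other scaling factors and filters, a test against the fold threshold (glmTreat), a fit on the 2 groups compared, a replicate block, removal of a trend on summed exon length and leaving out each library. Overlapping genes and coordinates came from the BDGP6.54 annotation.

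Genes were named by rule: the target and genes that the study measured by RT-qPCR, the 12 largest rises and 12 largest falls that passed the call, averaged 50 counts or more and had separate groups, for each list up to 6 members that passed with the largest changes, and members that went against their list. Other genes named, mostly uncalled members and further steps of a pathway, were chosen after their values were seen. The members and lists were chosen with earlier results of these data known. Part of the DNA damage response list is not reported here. The fit was tested on simulated data.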

Additional observations from a re-analysis of the deposited data

How the results depend on the processing

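With no fold threshold, 3208 genes were higher and 3322 lower against GFP dsRNA, and 2904 higher and 3219 lower against Myb dsRNA. In the test against the fold threshold (glmTreat), 850 genes were lower against GFP dsRNA and 856 against Myb dsRNA. The other totals over all genes stayed within 1.5 times the reported ones, with 1869 to 1975 higher and 1251 to 1477 lower against GFP dsRNA when 1 library was left out. DESeq2 gave 1880 higher and 1227 lower. With the length trend removed, 1904 were higher and 1132 lower, of which 1760 and 988 were among the genes reported. Of the genes followed by name, 45 lost their call in the test against the fold threshold, 30 with the length trend removed, 16 with a minimum count of 50 and 5 by DESeq2. None of the alternatives reversed a called gene that is named here. Same-numbered CycA dsRNA and GFP dsRNA libraries had correlated deviations of 0.037, 0.0625 and 0.0769, under the limit of 0.1, so the numbers were not taken as pairs. Each CycA dsRNA library did correlate best with its own number. The numbers are those of the sample titles, and the deposited counts number CycA dsRNA replicate 3 otherwise. With a replicate block 1936 genes were higher and 1305 lower, and no named call was lost.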

Other observations

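There were 25 runs of at least 5 adjacent tested genes called higher and 2 of genes called lower, with gene order from the BDGP6.54 annotation. The runs held 145 of the 1954 genes called higher. A run on chromosome arm 2L held Ance, NimA, NimB1, NimB2, He and NimC1, with a median log2 fold change of 2.74. On 3L, Hsp67Bc, Hsp26, Hsp67Ba, asRNA:CR43481, Hsp23, Hsp27 and CG4080 stood together with a median of 0.94. On 3R, 8 genes from CG31370 to CHKov1 had a median of 1.64. Many of these are tandem relatives that share sequence, and overlapping reads were not resolved.

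On chromosome 4, 27 of 92 tested genes were called higher (29.3%, against 21.2% of all genes) and 3 lower (3.26%), with a median log2 fold change of 0.26. Its genes were long, with a median exon length of 3705.5 bases against 2035 for all genes, and their part in this was not tested. Of 455 long noncoding and antisense RNA genes tested, 128 were called higher (28.1%, against 21.2% of all genes) and 52 lower (11.4%, against 14.1%). With a minimum count of 50 the numbers were 67 and 32. Genes annotated as noncoding RNA had a median of 0.869 CPM in GFP dsRNA cells. Of all genes under 1 CPM there, 53.8% were called higher. Other genes of like level were not compared, so these shares are not read as a trait of noncoding RNA.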
